A study of Homo sapiens with 12 samples.

Results

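Glycolysis turns glucose into pyruvate and then lactate through a chain of abundant cytosolic enzymes, and 10 genes of that chain were followed here: HK2, GPI, ALDOA, TPI1, GAPDH, PGK1, PGAM1, ENO1, PKM and LDHA. They were chosen by name. Their probe sets were all rows of the deposited table whose platform gene symbol is one of these names, which are 39 of 49495 rows, and 36 of the 39 carry no other symbol. Where a gene had several probe sets, the one with the highest mean over the 12 arrays led, so the members are 10 of the 18244 genes tested. The RNA came from Kelly and IMR-32, a pair of established human neuroblastoma cell lines that both carry MYCN amplification, and the labels name no further allele or transgene. Each line was exposed for 6 h to DMSO, to 100 nM THZ531 or to 400 nM THZ531, a covalent inhibitor of the transcription kinases CDK12 and CDK13, and DMSO was the vehicle in the controls. Each of the 6 groups held 2 PrimeView arrays, called biological duplicates by the labels. RNA was taken from equal numbers of cells with ERCC spike-in RNA added, and the authors scaled the linear intensities to the spike-ins.

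The enzymes act in order. Hexokinase traps glucose as glucose 6-phosphate, an isomerase and phosphofructokinase prepare it for the split by aldolase, and the steps from GAPDH to pyruvate kinase return ATP before lactate dehydrogenase regenerates NAD+. These mRNAs are among the most abundant in growing cells, and many of them are regarded as long-lived. Tumour cells often run the pathway fast in the presence of oxygen, and MYC-family and hypoxia-induced factors are known activators of several of its genes. RNA decay was not measured in these arrays, so "stable" is background and not a property these values can check: a 6 h treatment gives the remaining level of each mRNA, and a slower loss and continued synthesis cannot be told apart.

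Values are log2 intensities as deposited, without a pseudocount. A change is the difference between 2 group means, given with its standard error (± SE, 2 arrays in each group) from a limma fit over all 18244 genes. Adjusted p-values come from that fit after Benjamini-Hochberg correction over genes, with 0.05 as the threshold. No exact two-sided permutation test of such small groups can give a p under 0.333. Median intensity per array ran from 55.9 to 131.8. All 8 measured sympathetic neuroblast markers lay above the median row in every array. Their summed intensity ran from 37918 to 44920 in IMR-32 DMSO and from 14732 to 17314 in IMR-32 at 400 nM. Summed markers of fibroblasts, Schwann cells, and blood and endothelium did not exceed 897, 209 and 313 in any array. Of these lists, 1 to 3 of 6, 0 to 1 of 2 and 1 to 2 of 4 measured markers lay above the median row in an array. LUM and PTPRC had mean log2 levels of 3.86 and 3.78 beside 6.40 for the median row, while the fibroblast marker THY1 had 8.33. In IMR-32 at 400 nM the fibroblast markers THY1 and COL3A1 fell by 1.71 ± 0.39 and 0.75 ± 0.24 (adjusted p = 0.0180 and 0.0369), and their summed level went from 894 and 897 to 369 and 385. The part of these cell types in the results was not tested. Changes in cell state or in RNA per cell and changes in a gene's own output cannot be told apart in bulk RNA.

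Some arrays did not resemble their partners. Over all genes, Kelly 100 nM replicate 2 lay closest to Kelly 400 nM replicate 1 (root mean square difference 0.33 on the log2 scale) and Kelly 100 nM replicate 1 closest to Kelly 400 nM replicate 2 (0.38), while the partners at 100 nM differed by 0.74 and those at 400 nM by 0.68. IMR-32 100 nM replicate 1 differed by 0.45 and 0.54 from the 400 nM arrays of its line and by 1.07 from its own partner. The labels were kept, and whether arrays had been exchanged between doses was not tested. Results that rest on these arrays are given array by array, and again with 3 arrays left out, the second replicate of Kelly at both doses and of IMR-32 at 100 nM. The array kept was the one with the smaller change of the median gene for Kelly at 100 nM and with the larger change for the other 2 groups, and the spread within these groups no longer entered the pooled error.

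In the DMSO controls the 10 leading probe sets were bright. GAPDH was brighter than 99.98% of all rows by its mean over the 12 arrays, and the 9 genes other than HK2 all lay in the top 5% of genes. HK2, the hypoxia- and MYC-responsive hexokinase of tumour cells, was the dimmest member with a mean log2 level of 9.62, brighter than 91.3% of rows. Probe sets of different genes are not compared with each other by level. The plot of levels by group gives every array.

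**Figure D1:**
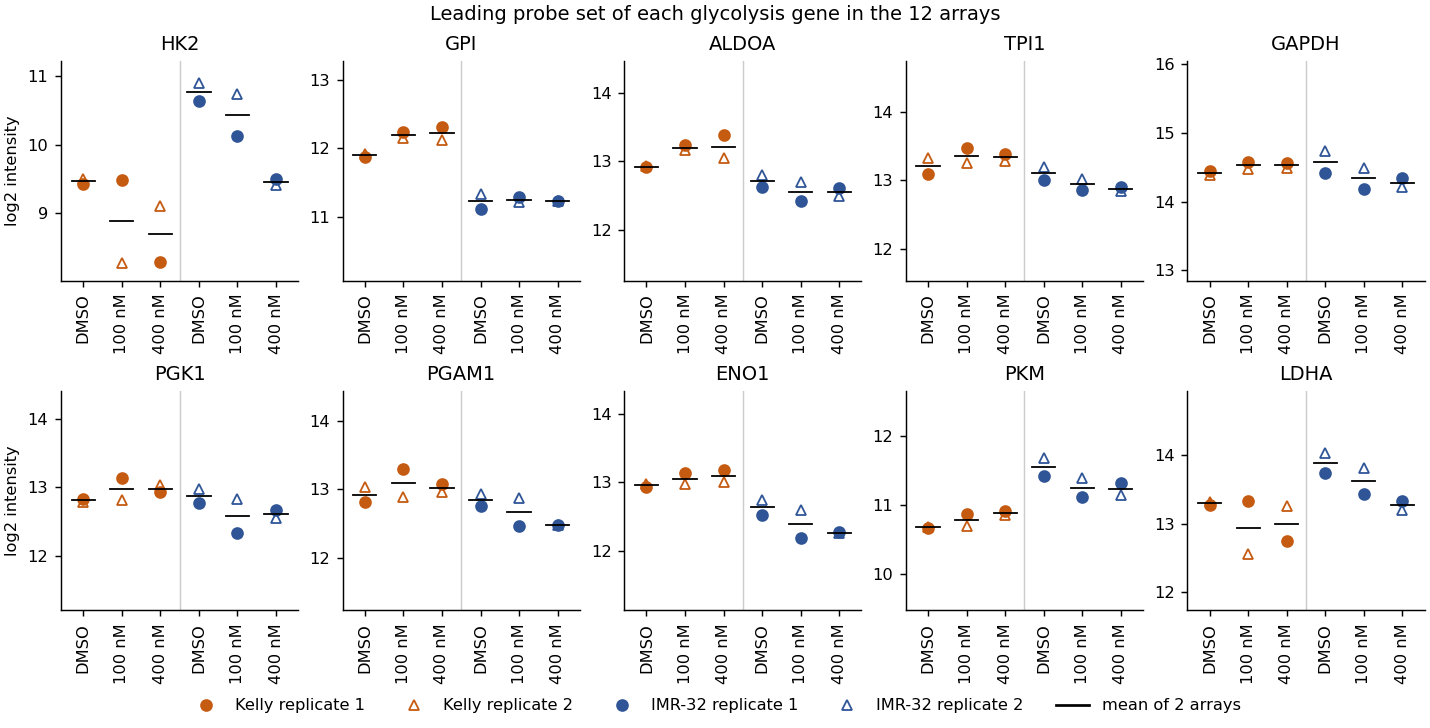
Log2 intensity (y axis) of the leading probe set of each glycolysis gene in the 6 groups (x axis), with Kelly in orange, IMR-32 in blue, filled circles for replicate 1, open triangles for replicate 2 and a bar at the mean of the 2 arrays. Every panel spans the same height of log2 units. HK2 dropped from 10.63 and 10.90 to 9.50 and 9.42 in IMR-32 at 400 nM, while GPI stayed between 11.12 and 11.34 in the 6 IMR-32 arrays.

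The comparison of IMR-32 at 400 nM with DMSO asked which mRNAs were lost when CDK12 and CDK13 were inhibited. Most glycolysis mRNAs were lower by a small amount that did not pass the test, and 1 of the 10 fell by more. HK2 fell by 1.31 ± 0.42 on the log2 scale, 2.48-fold lower (adjusted p = 0.0369). LDHA, which makes lactate from pyruvate, was next with a change of −0.61 ± 0.30 (adjusted p = 0.131), and the other 8 lay between −0.37 and 0.00. Of all genes, 39.0% were called lower and 0.395% higher in this comparison, against 1 and 0 of the 10 members. The median change of the members was −0.31, beside −0.67 for all genes, and 9 of 10 members lay above the median gene. Centring each array on its median shifts all genes of an array alike, so the gap between these medians could not change (0.73 and 0.37). With quantile normalization, which can change it, the members' median was below that of all genes (0.10 and 0.18). Leaving out 1 array moved the members' median, to −0.18 without IMR-32 DMSO replicate 2 and −0.45 without replicate 1.

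In IMR-32, HK2 read 10.63 and 10.90 in the controls, 10.12 and 10.74 with 100 nM, and 9.50 and 9.42 with 400 nM. Both 400 nM arrays lay more than a log2 unit below both controls, and at 100 nM only replicate 2 reached the range of the controls. In Kelly, HK2 read 9.43 and 9.50 in the controls, 9.49 and 8.27 with 100 nM, and 8.30 and 9.10 with 400 nM. The low arrays in Kelly were 100 nM replicate 2 and 400 nM replicate 1, the arrays that resembled each other over all genes. The change in Kelly was −0.76 ± 0.42 at 400 nM (95% interval −1.71 to 0.19, adjusted p = 0.503) and −0.58 ± 0.42 at 100 nM (adjusted p = 0.486). Without the 3 arrays named above, HK2 changed by −1.17 in Kelly at 400 nM and by −0.64 in IMR-32 at 100 nM. Each of these changes rests on a single treated array, the one further from DMSO, so only its size is given. The arrays left out of these groups had −0.36 and −0.03. In IMR-32 at 400 nM, with 2 arrays in each group, the change stayed at −1.31 (adjusted p = 1.9e-05). These fits called 33.4%, 43.3% and 57.9% of all genes lower. The IMR-32 call at 400 nM was lost without either Kelly DMSO array (adjusted p = 0.0597) and without any 1 array of the comparison (0.0825 to 0.187). It was also lost under both other scalings, where the change shrank to −0.27 with each array centred on its median (adjusted p = 0.415) and −0.21 with quantile normalization (adjusted p = 0.519).

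In IMR-32, LDHA read 13.74 and 14.03 in the controls, 13.44 and 13.81 with 100 nM, and 13.34 and 13.20 with 400 nM. In Kelly it read 13.27 and 13.32 in the controls, 13.33 and 12.55 with 100 nM, and 12.75 and 13.25 with 400 nM. As for HK2, the lowest Kelly arrays were 100 nM replicate 2 and 400 nM replicate 1, and both IMR-32 arrays at 400 nM lay below both controls. Its change was −0.30 ± 0.30 in Kelly at 400 nM and −0.36 ± 0.30 at 100 nM, with adjusted p of 0.661 and 0.537. Without the 3 arrays, LDHA passed in IMR-32 at 400 nM with an unaltered change (adjusted p = 0.0156), where 57.9% of all genes were called lower.

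HK2 and LDHA were set apart as the members with the lowest changes at 400 nM in both lines. By their leading probe sets, both lay below the other 8 in most treated arrays. Since they were picked on these arrays, this place follows in part from the choice. In Kelly 100 nM replicate 2, HK2 lay 1.19 and LDHA 0.74 below the DMSO mean, while the other 8 ranged from −0.03 to 0.25. In Kelly 400 nM replicate 1 the changes were −1.17 and −0.55 against 0.12 to 0.45 for the other 8, and in replicate 2 they were −0.36 and −0.04 against 0.04 to 0.23. In the IMR-32 400 nM arrays HK2 was −1.27 and −1.35 and LDHA −0.54 and −0.68 from DMSO, with the other 8 between −0.41 and 0.00. Thus both genes were below all of the other 8 in these 5 arrays and in Kelly 100 nM replicate 1 (0.03 and 0.03 against 0.16 to 0.37), and not in either IMR-32 array at 100 nM, where LDHA lay within their range. In Kelly the pattern of HK2 was not seen in its second, dimmer probe set, which read 7.43 and 7.29 in DMSO, 7.82 and 7.42 with 100 nM, and 7.25 and 7.52 with 400 nM, with no drop in 100 nM replicate 2. Pearson's r between HK2 and LDHA was 0.96 over the 12 arrays after each line was centred on its mean, as a description only, since arrays of a line share their controls and their overall response. The median gene changed in the same arrays, by −0.48 in Kelly 100 nM replicate 2, −0.34 in Kelly 400 nM replicate 1, and −0.63 and −0.75 in the IMR-32 400 nM arrays, and its part in these changes was not tested.

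**Figure D2:**
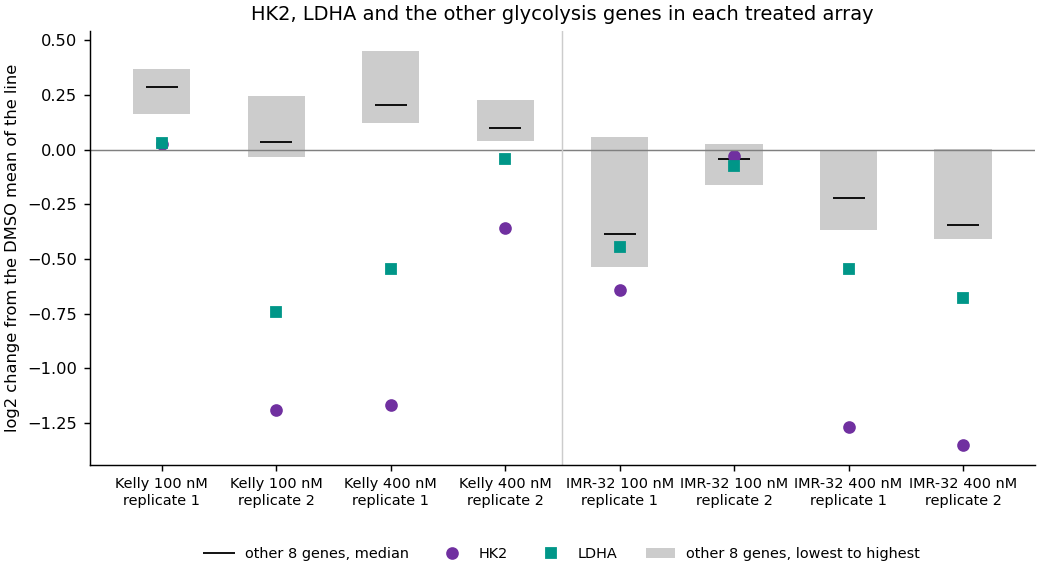
Log2 change from the DMSO mean of the same line (y axis) in each of the 8 treated arrays (x axis), for HK2 (circles), LDHA (squares) and the other 8 glycolysis genes (bars from the lowest to the highest gene, with a line at their median). HK2 reached −1.19 and −1.17 in an array of each Kelly dose while the bars of those arrays lay between −0.03 and 0.45.

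Of the 8 enzymes other than HK2 and LDHA, none passed the test in IMR-32 at 400 nM. ALDOA, TPI1 and GPI of the upper pathway changed by −0.15 ± 0.20, −0.23 ± 0.20 and 0.00 ± 0.18. GPI, which isomerises glucose 6-phosphate to fructose 6-phosphate, read 11.12 and 11.34 in the controls and 11.23 and 11.24 with 400 nM, so its treated arrays sat between the controls. Its 95% interval ran from −0.42 to 0.42, and a drop as large as that of HK2 lay outside it. ALDOA, the aldolase that splits fructose 1,6-bisphosphate, read 12.62 and 12.80 without and 12.62 and 12.49 with 400 nM, so its nearest arrays were equal to the second decimal. TPI1, which interconverts the products of the split, was 13.01 and 13.20 in DMSO against 12.91 and 12.84.

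The enzymes of the lower pathway had similar changes. PGK1, the first ATP-yielding kinase of the pathway, changed by −0.27 ± 0.23, PGAM1, the phosphoglycerate mutase, by −0.37 ± 0.23, ENO1, the enolase that makes phosphoenolpyruvate, by −0.37 ± 0.21 and PKM, the pyruvate kinase of growing cells, by −0.32 ± 0.20. Their adjusted p ran from 0.186 for ENO1 to 0.361 for PGK1. ENO1 was 12.52 and 12.74 in DMSO and 12.27 and 12.26 at 400 nM, and PGAM1 was 12.76 and 12.93 against 12.48 and 12.48. In all, 9 of the 10 members had both 400 nM arrays below both DMSO arrays, GPI being the exception, which is to be read against 76.6% of all genes. None lay above, against 2.71% of all genes.

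GAPDH, the dehydrogenase that starts the second stage of the pathway, also served the study as the reference of its quantitative PCR. Its leading probe set is an array control named for the gene. In IMR-32, GAPDH read 14.43 and 14.74 in the controls, 14.19 and 14.50 with 100 nM, and 14.34 and 14.21 with 400 nM. In Kelly it read 14.45 and 14.39 in the controls, 14.59 and 14.48 with 100 nM, and 14.57 and 14.49 with 400 nM. The groups at 400 nM lay below DMSO in IMR-32 and above it in Kelly, by −0.31 ± 0.20 (95% interval −0.77 to 0.16) and 0.11 ± 0.20 (−0.35 to 0.57), and neither difference passed the test (adjusted p = 0.250 and 0.826). The 3′ and 5′ control probe sets of GAPDH differed by −0.11 to 0.01 over the 12 arrays, and those of ACTB by 0.31 to 0.71. The ACTB difference was 0.46 and 0.59 in IMR-32 DMSO and 0.37 and 0.31 at 400 nM. The mean log2 level of the hybridisation controls was 10.85 and 11.31 in IMR-32 DMSO and 10.51 and 10.53 at 400 nM. The ACTB difference and the hybridisation controls were thus lower at 400 nM in IMR-32, and their part in the members' changes was not tested. GAPDH lay near the top of the scale, where the highest intensity of the whole table was 33557, and a flattening of changes at such intensities was not tested.

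**Figure D3:**
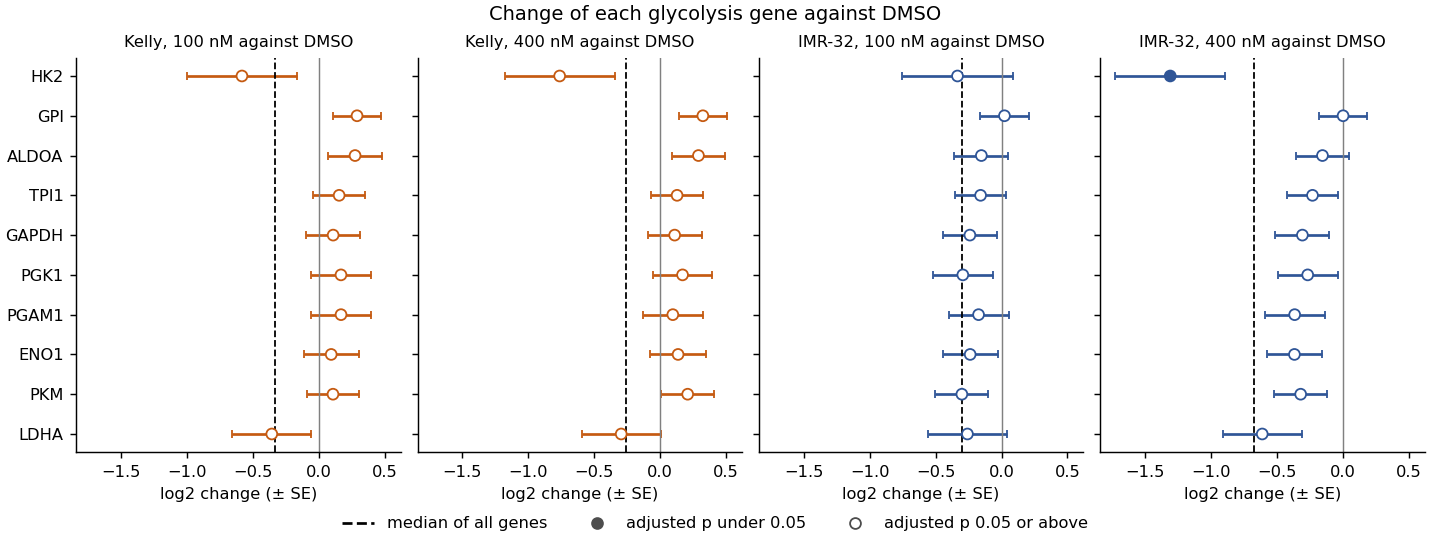
Log2 change against DMSO with the limma standard error (x axis) for the 10 glycolysis genes (y axis) in the 4 dose comparisons. Filled points have an adjusted p under 0.05, and the dashed line marks the median of all genes (−0.33, −0.26, −0.30 and −0.67 from left to right). HK2 in IMR-32 at 400 nM, at −1.31, is the only filled point.

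In Kelly at 400 nM, 8 of 10 glycolysis genes had a change above 0 and none passed limma, as for all genes (0% called). At an unadjusted p under 0.05 the members gave 0 calls, and all genes gave 1176 lower and 136 higher. GPI had 0.32 ± 0.18 and ALDOA 0.29 ± 0.20, followed by PKM with 0.21 ± 0.20, PGK1 with 0.17 ± 0.23 and ENO1 with 0.14 ± 0.21. GPI was 11.87 and 11.92 in DMSO and 12.32 and 12.13 at 400 nM, and ALDOA was 12.92 and 12.93 against 13.38 and 13.05. For both genes the groups did not overlap, and the lower 400 nM value was that of replicate 2. The arrays were separate and higher for 6 members (GPI, ALDOA, GAPDH, PGK1, ENO1 and PKM) and separate and lower for HK2 and LDHA, where 9.26% of all genes were separate and higher and 48.8% separate and lower. The members' median was 0.13 (0.073 without Kelly 400 nM replicate 1) and that of all genes −0.26. Genes in the top 5% of mean level, which hold 9 members, had a median of −0.14. Those of them also in the shortest quartile of gene span had 0.04. Without the 3 arrays the median of the members was 0.17, with only replicate 1 kept at 400 nM.

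The 100 nM comparisons gave no calls either among the members or among all genes (0% in each line). At an unadjusted p under 0.05, limma again gave 0 members in each line, and 723 lower and 83 higher genes in IMR-32 and 1813 lower and 136 higher in Kelly. In IMR-32 the members' changes ran from −0.33 for HK2 to 0.02 for GPI, with a median of −0.24 beside −0.30 for all genes. PKM was the only member whose arrays were separate and lower (27.0% of all genes), at 11.43 and 11.69 in DMSO and 11.12 and 11.39 at 100 nM. None was separate and higher (6.37% of all genes). The arrays of this group disagreed: against DMSO the median member lay at −0.42 in replicate 1 and −0.04 in replicate 2, and the median gene at −0.50 and −0.06. In Kelly the changes at 100 nM ran from −0.58 for HK2 to 0.29 for GPI with a median of 0.13. This median was 0.018 without replicate 1 and 0.22 without replicate 2. Genes in the top 5% of level had a median of −0.12 there, and those also in the shortest quartile of span 0.06. GPI, ALDOA, GAPDH and PKM were separate and higher, where 5.66% of all genes were, and no member was separate and lower, where 53.6% were.

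Going from 100 to 400 nM, no member passed the test in either line. With all arrays the HK2 step in Kelly was −0.18 ± 0.42. Without the 3 arrays it was −1.19, between a single array of each dose, and its size rests on which arrays were kept. In IMR-32 the largest step was that of HK2, −0.98 ± 0.42 (adjusted p = 0.248), the only member with an unadjusted p under 0.05, in a comparison in which 0.00548% of all genes were called. The Kelly step called 0% of all genes, and at an unadjusted p under 0.05 it gave 0 members, 165 lower genes and 385 higher ones. Both steps share the arrays of the comparisons with DMSO, so they repeat those differences in another form.

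The effect of 400 nM was set against the other line directly. For all 10 members the Kelly change minus the IMR-32 change was positive, from 0.32 for LDHA and GPI to 0.55 for HK2, and the median gene had 0.49. None passed (smallest adjusted p = 0.449 for PKM, 0.53 ± 0.28), nor did any gene (0% called). At an unadjusted p under 0.05 limma gave 0 members, 33 genes with a negative and 1871 with a positive difference. Of the 8 enzymes other than HK2 and LDHA, 7 had opposite signs in the lines and GPI did not, and these differences were not resolved from 0. Relative to the median gene, the difference of the median member was −0.05. All 36 single-symbol probe sets had a positive difference. At 100 nM the difference likewise called 0% of genes, with 279 negative and 91 positive at an unadjusted p under 0.05, and the members' adjusted p was 0.9997 for each.

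The lines also differed before treatment. In DMSO, PKM was lower in Kelly than in IMR-32 by 0.88 ± 0.20 on the log2 scale, 1.84-fold (adjusted p = 0.0394), and no other member passed, where 3.02% of all genes were called lower and 1.98% higher. PKM was 10.67 and 10.68 in Kelly DMSO and 11.43 and 11.69 in IMR-32 DMSO. HK2 differed more, by −1.30 ± 0.42, but with a wider error (adjusted p = 0.145), and GPI was 0.67 ± 0.18 higher in Kelly (adjusted p = 0.0846). LDHA had −0.58 ± 0.30. HK2, PKM and LDHA had both Kelly arrays below both IMR-32 arrays (37.8% of all genes), and GPI, ALDOA and ENO1 had both above (20.9%). The PKM call was lost without any 1 Kelly array at either dose or any 1 IMR-32 array at 400 nM (adjusted p = 0.0567 to 0.0746) and without any 1 DMSO array (0.106 to 0.295). With the 3 arrays left out, HK2, PKM and LDHA were called lower and GPI higher, where 19.0% of all genes were called lower and 7.22% higher.

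Separate probe sets of a gene gave a check on each leading value. In IMR-32 at 400 nM all 36 single-symbol probe sets but that of GPI had a change below 0. The second HK2 probe set, dimmer at a mean of 7.78, fell by 0.94 there (adjusted p = 0.0220 over all 49495 rows, of which 35.5% were called lower). In Kelly at 400 nM it had 0.03, where the leading one had −0.76, so the Kelly values of HK2 disagree between its probe sets. In DMSO it was lower in Kelly than in IMR-32 by a difference of −1.14 (adjusted p = 0.0277). The 4 LDHA probe sets ran from −0.65 to −0.55 in IMR-32 and from −0.40 to −0.30 in Kelly. The 9 of PGK1 ran from −0.48 to −0.08 in IMR-32, and the 4 of GAPDH from −0.31 to −0.22.

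PKM is spliced to alternative forms that differ in their choice of exon, and all 5 of its single-symbol probe sets were lower in Kelly DMSO than in IMR-32 DMSO. A pair of them read 5.15 to 5.65 in every Kelly array, below the median row and not shown to be above background, so their differences of −2.57 and −2.71 are not exact. The other 3 differed by −0.67 to −0.96. Of the 5, 3 passed the test over all rows (2.77% of which were called lower), and the leading one was not among them (adjusted p = 0.0506). A brighter row with the symbols PKM and PKM2 (mean 12.49) was left out of the gene fit. It differed by −0.70 ± 0.24 between the lines in DMSO and did not pass over all rows (adjusted p = 0.176). Which exon each probe set reads is not annotated in the table used. Of the rows with more than 1 symbol, the row shared by ENO1 and TMEM11 was 9.85 and 10.08 in IMR-32 DMSO and 6.90 and 6.59 at 400 nM. That drop of 3.23 did not appear in the ENO1 probe sets (−0.37 and −0.36), and the accession of the row belongs to a TMEM11 transcript. Most member probe sets (23 of 36) carry the suffix of sets whose probes also match other transcripts, and several members have processed pseudogenes, so such copies are not separated.

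**Figure D4:**
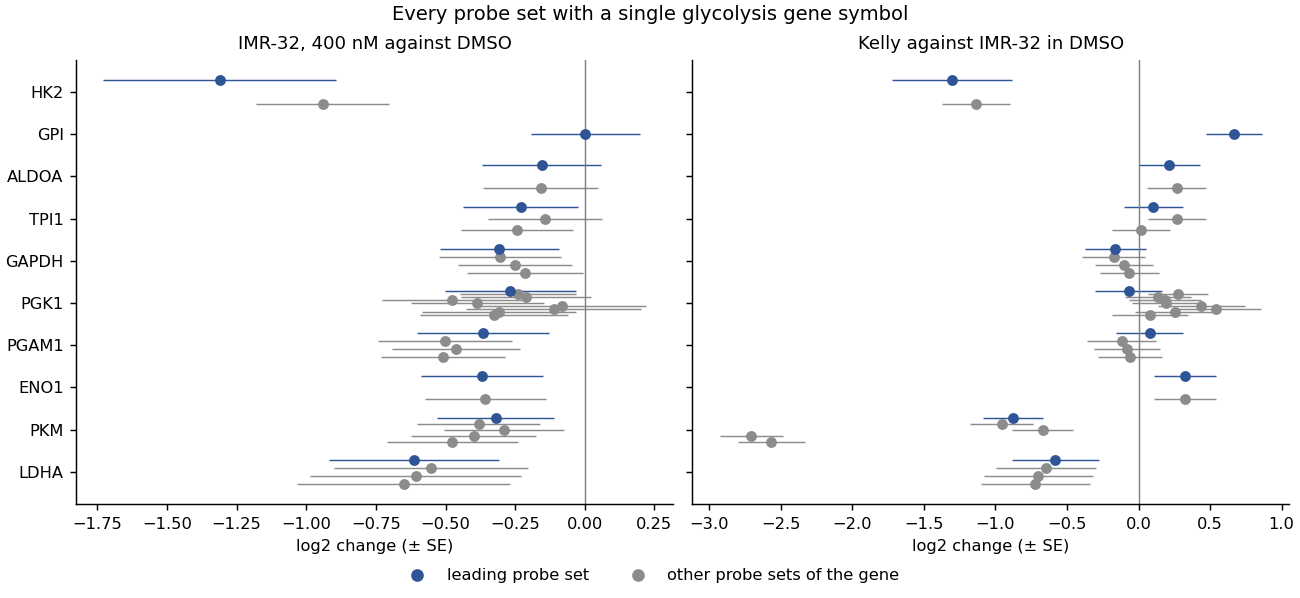
Log2 change with the limma standard error (x axis) of each of the 36 probe sets with a single glycolysis gene symbol, by gene (y axis), with the leading probe set in blue and the others in grey. Left, IMR-32 at 400 nM against DMSO, where 35 of 36 lie below 0. Right, Kelly against IMR-32 in DMSO, where a pair of PKM probe sets lie at −2.57 and −2.71.

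The members share a high level and mostly a modest gene length. Gene spans on assembly GRCh38.p14 were 3.53 kb for TPI1, 3.86 kb for GAPDH, 6.14 kb for ALDOA and 7.25 kb for PGAM1, which are in the shortest quartile of all genes. LDHA (13.9 kb), ENO1 (17.7 kb) and PGK1 (25.05 kb) fell in the next quartile, and PKM (32.6 kb), GPI (42.7 kb) and HK2 (59.2 kb) in the one above it. None was in the longest quartile. In IMR-32 at 400 nM the median change of all genes was −0.37, −0.63, −0.96 and −0.999 from the shortest to the longest quartile. Against the median of its own quartile HK2 lay below and PKM and GPI lay above, at −1.31, −0.32 and 0.00 beside −0.96. By level, HK2 lay at the median of its stratum: among the 3648 genes with a mean log2 level from 8.42 to 10.78 the median was −1.32, and 61.0% were called lower. LDHA lay near the median of its quartile, at −0.61 beside −0.63. Among the 913 genes in the top 5% of level, which hold 9 members, the median was −0.48 and 20.6% were called lower, and among the 341 of these in the shortest quartile of span it was −0.33. Level and span were not separated from each other in a test.

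**Figure D5:**
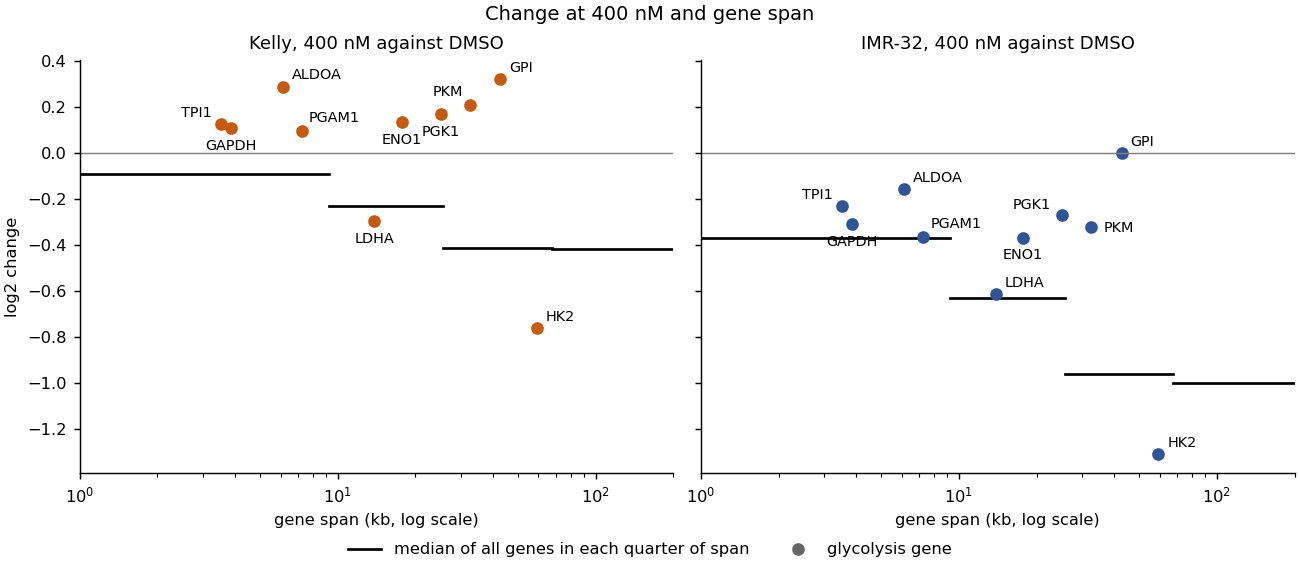
Log2 change at 400 nM against DMSO (y axis) of each glycolysis gene by its gene span in kb (x axis, log scale), in Kelly (left) and IMR-32 (right). Black lines show the median of all genes within each quartile of span, drawn from 1 to 200 kb. HK2, the longest member at 59.2 kb, has −0.76 and −1.31, and GPI, at 42.7 kb, has 0.32 and 0.00.

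Over the 12 arrays the members followed each other to different degrees. With each line centred, Pearson's r of a member with the mean of the others was highest for PGAM1 (0.91), ENO1 (0.88) and GAPDH (0.86), lower for HK2 (0.56) and ALDOA (0.49), and lowest for GPI (0.11). Within IMR-32 r was 0.83 for HK2, 0.88 for ALDOA and 0.12 for GPI. Within Kelly it was 0.08, 0.06 and 0.16 (6 arrays in each line). Among 10471 other genes, the profile most like the members' mean was that of the ribosomal protein gene RPL27 (r = 0.98), followed by PRX (0.97), RPS27, another ribosomal protein gene (0.96), HK1, the widely expressed hexokinase (0.96), and IDH3B, a subunit of mitochondrial isocitrate dehydrogenase (0.96). The median r of all genes compared was 0.69, and the part of the shared treatment and scaling in it was not tested. RPL27 changed by −0.26 ± 0.20 and HK1 by −0.67 ± 0.24 in IMR-32 at 400 nM, and neither passed.

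The rest of the pathway was described from lists. The counts stand beside 39.0% of all genes called lower and 0.395% higher in IMR-32 at 400 nM. Of 20 other measured glycolysis enzymes and isoforms, 2 fell in IMR-32 at 400 nM and 0 rose, with a median of −0.30. These were ADPGK, the ADP-dependent glucokinase, which fell by 1.58 ± 0.36 (adjusted p = 0.0180), and PFKP, the platelet form of phosphofructokinase, which fell by 0.84 ± 0.27 (adjusted p = 0.0367). Of 6 regulators of flux, PFKFB3 and PFKFB4, kinases that make the phosphofructokinase activator fructose 2,6-bisphosphate, fell by 2.16 ± 0.25 and 1.84 ± 0.44. PFKFB3 was at a mean of 10.52 in IMR-32 DMSO and 8.36 at 400 nM. Of 12 measured glucose and lactate transporters, 6 (50.0%) fell and 0 rose. The 4 with the smallest adjusted p were SLC2A1, the basal glucose transporter GLUT1 (−2.51 ± 0.49), SLC2A8 (−1.76 ± 0.36), SLC16A7, a monocarboxylate transporter (−1.68 ± 0.37), and SLC2A13 (−3.13 ± 0.83). The enzymes of the chain and the genes that feed and regulate it thus had medians of −0.31, −0.62 (transporters) and −0.54 (regulators), beside −0.67 for all genes.

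Genes beyond pyruvate were counted in the same way, beside the 39.0% of all genes called lower, and no list was tested against the others. Of 13 measured genes of the pyruvate dehydrogenase complex, its kinases and the mitochondrial pyruvate carrier, 7 fell, with a median of −0.90. PDHB, a subunit of the complex, fell by 2.65 ± 0.62 and MPC1, a part of the carrier, by 1.92 ± 0.47. Of 17 citric acid cycle genes, 8 fell, with a median of −1.06, including IDH3A (−2.79 ± 0.69), OGDH (−1.75 ± 0.48), SDHA (−1.48 ± 0.40) and DLST (−1.33 ± 0.29). The pentose phosphate pathway had 3 of 7 lower with a median of −0.60 (RPE, PGD and RPIA), and gluconeogenesis 2 of 8 with a median of −0.55 (PCK2 and G6PC3). None of these genes rose, and in Kelly at 400 nM 0 genes of any of these lists passed. Of 11 other common reference genes of expression assays, 3 (27.3%) fell, and the median of the 11 was −0.51. TBP fell by 3.85 ± 0.71, GUSB by 1.07 ± 0.30 and TUBB by 0.62 ± 0.22. The changes of the 11 ran from −3.85 to −0.24, and GAPDH had −0.31 ± 0.20. The drug targets CDK12 and CDK13 and their partner cyclin gene CCNK had changes of −2.68 ± 0.57, −3.62 ± 0.81 and −1.65 ± 0.28, and all 3 passed.

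The promoters of HK2 and LDHA are shown because these genes had the largest drops among the members in IMR-32 at 400 nM. The windows are the 250 bases before each start in the RefSeq promoter table (GRCh38.p14), in which all 10 members were found with 15 windows, since a gene can have several annotated starts. The palindrome CACGTG, the E-box bound by MYC-family and related factors, was found before the starts of 4 members, ALDOA, GAPDH, HK2 and LDHA, in 4 of the 15 windows, and in 6.34% of all 35116 windows. HK2 and LDHA each hold a pair of them. The 30 bases around each are printed 5′ to 3′ on the plus strand, on which all 4 genes lie, with CACGTG in capitals.
HK2, chr2:74834964-74834993: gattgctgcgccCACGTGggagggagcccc
HK2, chr2:74835009-74835038: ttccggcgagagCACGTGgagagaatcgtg
LDHA, chr11:18394366-18394395: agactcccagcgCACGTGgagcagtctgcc
LDHA, chr11:18394464-18394493: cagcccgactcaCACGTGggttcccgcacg
GAPDH, chr12:6535171-6535200: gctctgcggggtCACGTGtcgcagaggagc
ALDOA, chr16:30064373-30064402: tggcagggaggcCACGTGatccgagtcccc
The motif starts 194 and 149 bases before a start in HK2 and 185 and 87 bases before one in LDHA. In GAPDH and ALDOA it starts 81 and 112 bases before one. The sites of HK2, GAPDH and ALDOA lie before later starts, within the gene span. Only those of LDHA lie before the whole span. GAPDH and ALDOA hold it too, and their changes in IMR-32 at 400 nM were −0.31 and −0.15.

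Shorter motifs were searched on both strands in the same windows. The core ACGTG, which every CACGTG also contains, was found in 7 members (ALDOA, GAPDH, GPI, HK2, LDHA, PGK1 and TPI1). It lay in 10 of the 15 member windows and in 18.5% of all windows. The variant GCGTG was found in 5 members, in 6 of the 15 member windows, and in 32.2% of all windows. The GC box GGGCGG was found in 9 members, all but GPI, in 11 of the 15 windows, and in 42.6% of all windows. TATAAA was found in none of the members and in 10.7% of all windows. PGK1 is shown as a member that holds ACGTG without CACGTG and that did not pass in any comparison of the main fit. Another of its sites, 183 bases before the start, is not printed. The stretch is on the plus strand with the core in capitals.
PGK1, chrX:78104034-78104062: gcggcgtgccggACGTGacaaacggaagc
A match describes these letters only, and binding was not measured on these arrays.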

How the data were processed

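Gene expression was measured on 12 PrimeView arrays, 2 per group, grouped by the labels alone. The deposited values are linear intensities per probe set, which the authors made with MAS5 and the affy package (R 3.1.3, per the submitters' processing notes) and scaled by loess to ERCC spike-ins. Scaling was kept, since it leaves shifts of most genes in the data. Values were log2 transformed with no filter. Symbols came from the platform annotation: 45284 rows had 1 symbol, 1333 several and 2878 none. The probe set with the highest mean stood for a gene. The 6 group means were fitted with limma 3.58.1 (R 4.3.3, lmFit and eBayes, 6 residual and 2.85 prior degrees of freedom, two-sided, FDR 0.05 over 18244 genes). The code was tested on simulated data. Tables and figures used pandas 2.3.3 and matplotlib 3.10.9.

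All 10 members are named whatever their values. Of each list, genes that passed in IMR-32 at 400 nM are named, at most 4 by adjusted p. The 5 genes most like the members had a mean level above the median row (6.40) and the highest Pearson r with the members' mean. The members, lists and tests were chosen with earlier results of these data known. Rows with several symbols were left out of the gene fit. The number of arrays limits the precision. Alternatives were other scalings, other probe set rules, a level filter, other fits, a block for the replicate number, and leaving out arrays. Leaving out each array outside a comparison was chosen after seeing the data.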

Additional observations from a re-analysis of the deposited data

How the results depend on the processing

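With each array centred on its median, the median gene moved from −0.67 to 0.37 in IMR-32 at 400 nM, and the members' median change became 0.73, with 4 members called, all higher (18.7% of all genes were), GPI, and ALDOA (0.89), TPI1 (0.81) and PGK1 (0.77), whose sign turned. Relative to the median gene the members' median was 0.36 under centring, which cannot alter this gap. With quantile normalization the members' median was 0.10 with 0 calls, and −0.08 relative to the median gene. Centring also gave a median of 0.21 in IMR-32 at 100 nM, 0.56 and 0.64 in Kelly at 400 and 100 nM, 0.22 between the lines in DMSO and −0.17 for the difference between the lines at 400 nM. Quantile normalization gave 0.0037 in IMR-32 at 100 nM, 0.17 between the lines and 0.039 for the difference. Between the lines it called 2 members, and 4.82% of all genes lower and 4.68% higher. HK2 in IMR-32 at 400 nM ran from −1.44 to −0.21 over 21 alternatives and passed in 12. Many of these could only alter the error and left the change at −1.31. Leaving out either array of a group outside the comparison gave the same fit, so the alternatives are not separate checks.

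The call of HK2 in IMR-32 at 400 nM (1 member) became 0 without either Kelly DMSO array and without any 1 array of the comparison (0 to 0 calls). It became 2 with only the arrays of the comparison (54.9% of all genes called lower) and without the 3 arrays (57.9%). Without the 3 arrays, the median in IMR-32 at 100 nM was −0.42. IMR-32 at 100 nM and Kelly at both doses then held a single array, so calls in their comparisons are not counted. Leaving out 1 array of a comparison gave medians from −0.45 to −0.18 in IMR-32 at 400 nM, −0.42 to −0.043 in IMR-32 at 100 nM, 0.073 to 0.18 in Kelly at 400 nM and 0.018 to 0.22 in Kelly at 100 nM. Between the lines in DMSO, the call of PKM (1 member) became 2 with the mean of all probe sets (3.73% of all genes lower, 2.18% higher). It became 2 also without either IMR-32 100 nM array (7.17% and 3.69%), and 3 with only the arrays of the comparison (18.4% and 6.55%). It became 0 with only genes above the median level, with trend and robust options, without any 1 array of Kelly at 100 or 400 nM or of IMR-32 at 400 nM, and without any 1 of its own arrays (0 to 0 calls). Counting separate arrays in place of limma gave 9, 1, 8, 4 and 6 members in IMR-32 at 400 and 100 nM, Kelly at 400 and 100 nM and between the lines.

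The replicate numbers gave no common pairing of the arrays: same-numbered deviations correlated from −0.78 to 0.36 over 15 pairs of groups. The lowest value was that of Kelly 100 with 400 nM, and pairs of groups within IMR-32 had 0.16 to 0.27. With the number as a replicate block, 0 members were called in IMR-32 at 400 nM (median −0.31; HK2 adjusted p = 0.0524) and 0 between the lines (PKM adjusted p = 0.0795), and the other comparisons kept 0 calls. Over the alternatives, 50 of the medians and counts of called members moved. Another 207 stayed within the spread between replicates (medians, some of which moved by over 1.5 times) or within 1.5 times (counts). Many of these medians could not move, because several alternatives alter only the error or the set of genes fitted. With 2 arrays per group, changes of the size of most members (0.1 to 0.4) could not be resolved from their errors.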
